A study of Mus musculus with 8 samples.

Results

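The genes described here were 10 epithelial keratin and junction genes, measured in lung neutrophils of mice with and without pneumococcal pneumonia. They were Cdh1, Epcam, Krt7, Krt8, Krt18, Krt19, Cldn3, Cldn7, Cldn18 and Ocln. They were chosen by symbol as genes that mark epithelium, with earlier results of these data known. All 10 had a row, and each had 1 row only, among 24625 rows that carried 19836 gene symbols. Wild type mice, labelled as 6 to 12 weeks old and of the C57BL/6 J strain per the study's methods, were given Streptococcus pneumoniae (SP) or PBS alone by intratracheal instillation. Each group received 2.3 µl for every g of mouse weight, directed to the left lung. Lungs were digested with enzymes 24 h later, and cells that bound magnetic beads by way of Ly6G, which neutrophils of mice carry on their surface, were collected as neutrophils. Each of the 8 samples, 4 from PBS mice and 4 from SP mice, was hybridised to its own whole-transcript array. The study examined the purity of the isolated cells in mice with pneumonia and not in mice given PBS, so the other cells in the PBS samples were not counted. In mice with pneumonia it reported nearly pure neutrophils by stained cell preparations. The few other cells mostly looked like alveolar macrophages and rarely like eosinophils. It also reported high Ly6G mRNA in all samples. Values are normalized log2 expression levels, on which 1 unit is a 2-fold difference, and levels of different genes are not compared because probes differ in brightness.

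Epithelial cells are held together at their sides by stacked junctions. E-cadherin (Cdh1) forms the adherens junction, occludin and the claudins form the tight junction that seals the space between cells, and desmosomes tie the cells' keratin filaments together. Keratins assemble as pairs of a type I and a type II protein, and Krt8 with Krt18 is the typical pair of simple epithelia such as those of the airways and alveoli. Neutrophils are blood cells that migrate through such epithelium, and they are not known for keratin filaments or tight junctions.

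All 10 genes were lower in SP than in PBS. Each fell at least 2-fold, from 2.43-fold for Epcam to 7.31-fold for Krt19, with adjusted p-values from 0.000106 to 0.00956 by limma. Over the whole table, 22.6% of rows were lower in SP at an adjusted p of at most 0.05, and 11.3% were also at least 2-fold lower. Of the rows that differed at least 2-fold, 63.9% were lower, and 44.4% with each array centred on its median, where 7.7% of all rows and all 10 genes were at least 2-fold lower. Every PBS value lay above every SP value for all 10 genes, as it did for 21.8% of all rows. The median difference of the 10 genes (SP minus PBS) was -2.03 log2 units, against 0.10 over all rows. Values are relative within an array of a preparation of many cells. A smaller share of epithelial cells, whatever their number, and less of these transcripts per cell therefore cannot be told apart.

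**Figure D1:**
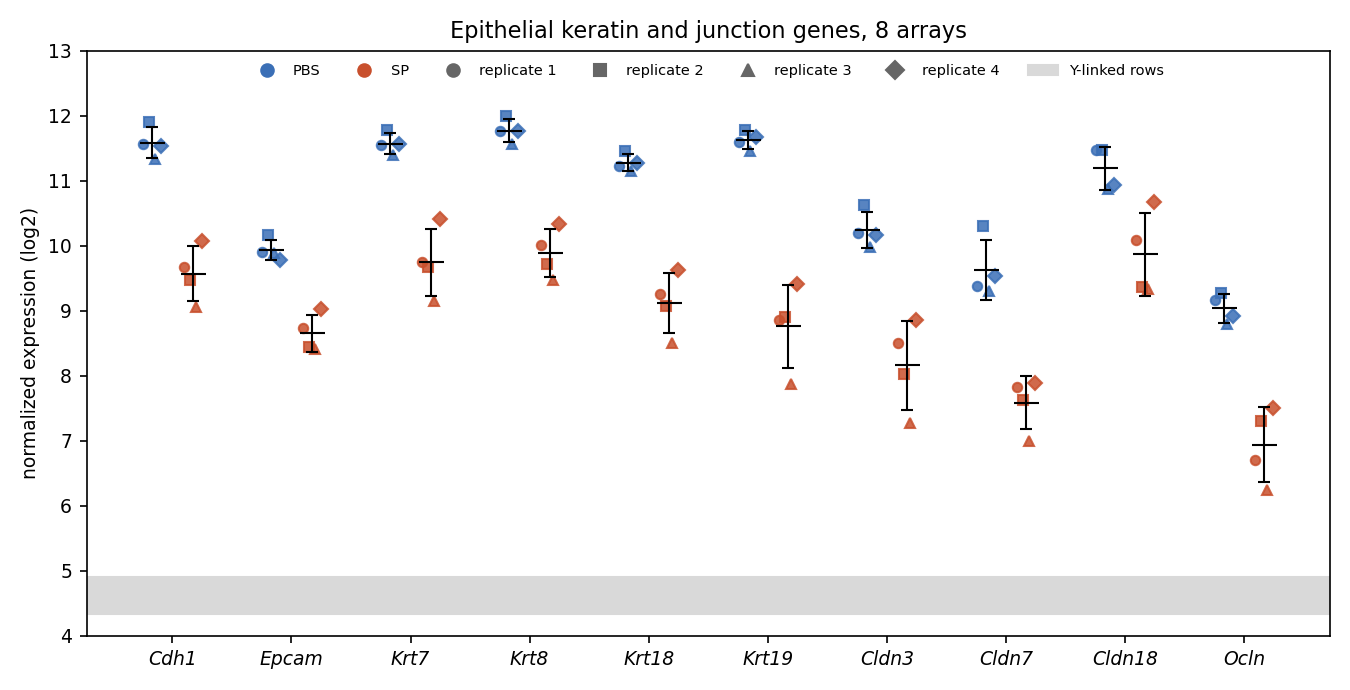
Normalized expression (log2, vertical axis) of the 10 genes in 4 PBS (blue) and 4 SP (orange) samples, with marker shape giving the replicate, black bars the mean ± SD, and the grey band the range of 3 Y-linked rows (4.33 to 4.90). All PBS points lie above all SP points of the same gene, and the lowest SP value (6.24, Ocln) lies above the grey band.

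The promoters of several of these genes are printed because the genes moved together and because E-boxes of the letters CACCTG or, on the other strand, CAGGTG are known as binding sites of the Snai and Zeb repressors of Cdh1. The 250 bases before the start of transcription were taken from RefSeq annotation of the mouse assembly GRCm38.p6, for 8 of the 10 genes in 11 windows, and the promoters of Cdh1 and Krt19 were not analysed here. Krt8 and Krt18 lie on opposite strands of chromosome 15, with 23373 bases between their windows. The first 3 of the following sequences hold the E-box letters, the fourth (Cldn3) does not, and the fifth is that of Cldn1, the claudin that rose, which was chosen after its values were seen. All are written 5′ to 3′ on the strand of the gene, with the E-box letters in capitals.

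Krt8 (chr15:102004343-102004592, minus strand): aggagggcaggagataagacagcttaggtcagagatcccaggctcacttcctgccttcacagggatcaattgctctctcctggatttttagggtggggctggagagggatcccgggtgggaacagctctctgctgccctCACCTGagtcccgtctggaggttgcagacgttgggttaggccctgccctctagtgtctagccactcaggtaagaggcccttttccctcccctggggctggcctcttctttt

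Krt18 (chr15:102027966-102028215, plus strand): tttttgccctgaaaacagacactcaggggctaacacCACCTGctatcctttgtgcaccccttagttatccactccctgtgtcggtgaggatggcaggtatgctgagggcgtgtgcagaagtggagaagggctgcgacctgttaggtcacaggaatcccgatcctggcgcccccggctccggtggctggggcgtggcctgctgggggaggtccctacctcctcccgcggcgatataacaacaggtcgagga

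Epcam (chr17:87635729-87635978, plus strand): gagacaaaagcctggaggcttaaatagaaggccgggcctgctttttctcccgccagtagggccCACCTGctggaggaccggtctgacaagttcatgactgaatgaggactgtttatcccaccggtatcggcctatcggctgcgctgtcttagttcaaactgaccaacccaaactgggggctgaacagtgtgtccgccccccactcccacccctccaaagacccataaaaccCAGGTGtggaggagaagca

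Cldn3 (chr5:134985964-134986213, plus strand): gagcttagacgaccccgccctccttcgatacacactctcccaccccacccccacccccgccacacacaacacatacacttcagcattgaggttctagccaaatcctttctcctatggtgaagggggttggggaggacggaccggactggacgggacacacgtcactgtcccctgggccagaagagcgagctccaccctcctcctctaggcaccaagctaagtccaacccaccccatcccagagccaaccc

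Cldn1 (chr16:26371840-26372089, minus strand): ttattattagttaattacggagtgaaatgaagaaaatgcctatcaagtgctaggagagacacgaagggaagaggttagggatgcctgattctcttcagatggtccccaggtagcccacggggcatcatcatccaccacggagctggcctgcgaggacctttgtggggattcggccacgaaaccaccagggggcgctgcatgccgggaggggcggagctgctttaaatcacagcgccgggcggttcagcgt

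The E-box letters were found in a window of 6 of the 8 genes (Krt7, Krt8, Krt18, Epcam, Cldn7 and Ocln), and in a window of 19.4% of all 27025 genes. By window, they were in 6 of 11, and in 17.2% of all 32851 windows of the same length. In Epcam, matches began 187 and 19 bases before the start, in Krt18 214 bases and in Krt8 111 bases before it. The letters GGGCGG, the core of an Sp1 site, were found in 5 of the 8 genes and in 35.4% of all genes, or in 6 of the 11 windows and in 32.7% of all windows. The grainyhead letters AACCNGTT (1.79% of all windows) and the TATA box letters TATAAA (12.4%) were in none of the 11 windows. Motifs were searched on both strands, no match of a set overlapped a match of another set in these windows, and a match describes the letters only.

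Of the adhesion genes, Cdh1 encodes E-cadherin, the calcium-dependent adhesion protein of the adherens junction. Its 4 PBS values were 11.56, 11.91, 11.34 and 11.53, and its 4 SP values were 9.67, 9.48, 9.05 and 10.08. The nearest values of the groups were 1.26 log2 units apart, and SP replicate 3 was the lowest sample. Cdh1 fell from 11.59 ± 0.24 to 9.57 ± 0.43 (SD, n = 4 each), a difference of -2.01 (SE 0.22, 4.04-fold lower, adjusted p = 0.000182 by limma). Epcam, a surface glycoprotein that binds the same protein on neighbouring epithelial cells, had PBS values of 9.91, 10.16, 9.89 and 9.78 and SP values of 8.73, 8.44, 8.41 and 9.02. The PBS samples were close to each other and the SP samples were 0.76 or more below them. Its difference was the smallest of the 10, at -1.28 (SE 0.15, 2.43-fold lower, adjusted p = 0.000287), from 9.93 ± 0.16 to 8.65 ± 0.28.

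Among the type II keratins, Krt7 and Krt8 had similar changes. Krt7, a keratin of simple glandular and ductal epithelia, had PBS values of 11.55, 11.78, 11.39 and 11.57 and SP values of 9.75, 9.67, 9.15 and 10.41. Krt8, whose promoter is printed above, had PBS values of 11.77, 11.99, 11.57 and 11.76 and SP values of 10.01, 9.72, 9.47 and 10.33. For both, SP replicate 4 was the SP sample nearest to PBS, with gaps of 0.98 and 1.25. The difference was -1.83 for Krt7 (SE 0.24, adjusted p = 0.000484) and -1.89 for Krt8 (SE 0.18, adjusted p = 0.000106).

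The type I keratins were Krt18, the partner of Krt8, and Krt19, a keratin that has lost most of its tail domain. Krt18 was measured at 11.23, 11.45, 11.15 and 11.28 in PBS and at 9.25, 9.08, 8.51 and 9.63 in SP. It had the tightest PBS group of the 10 genes (SD 0.12) and fell by 2.16 on the log2 scale (SE 0.21, 4.46-fold lower, adjusted p = 0.000118). Krt19 was measured at 11.60, 11.78, 11.45 and 11.68 in PBS and at 8.85, 8.90, 7.88 and 9.41 in SP. Its groups were the farthest apart, with a gap of 2.04 between the lowest PBS and the highest SP sample. Krt19 showed the largest difference, -2.87 (SE 0.28, 95% confidence interval -3.52 to -2.22, adjusted p = 0.000119), from 11.63 ± 0.14 to 8.76 ± 0.64.

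The claudins are membrane proteins of the tight junction strand. Cldn3 was measured at 10.19, 10.63, 9.98 and 10.17 in PBS and at 8.51, 8.02, 7.27 and 8.85 in SP. Its SP values spread over more than 1 log2 unit, and SP replicate 3 was the lowest. Cldn3 fell by 2.08 (SE 0.32, adjusted p = 0.00114). Cldn7 was measured at 9.38, 10.30, 9.30 and 9.53 in PBS and at 7.83, 7.63, 7.0 and 7.89 in SP. It was the 1 gene whose PBS samples spread more (SD 0.46) than its SP samples (SD 0.41), with PBS replicate 2 above the rest, and it fell by 2.04 (SE 0.27, adjusted p = 0.000508).

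Cldn18, the claudin known from alveolar epithelium and stomach, separated the groups least. Its PBS values were 11.48, 11.47, 10.88 and 10.93, and its SP values were 10.09, 9.36, 9.34 and 10.67. SP replicate 4 came within 0.21 of the lowest PBS sample. Cldn18 fell from 11.19 ± 0.33 to 9.87 ± 0.64, a difference of -1.33 (SE 0.31, 95% confidence interval -2.04 to -0.61, 2.51-fold lower, adjusted p = 0.00956 by limma). Ocln, which encodes occludin, a four-pass protein of the same strands, was measured at 9.17, 9.28, 8.79 and 8.92 in PBS and at 6.71, 7.31, 6.24 and 7.50 in SP. All SP samples lay at least 1.29 below the PBS samples, and the difference was -2.10 (SE 0.27, 4.29-fold lower, adjusted p = 0.000443).

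**Figure D2:**
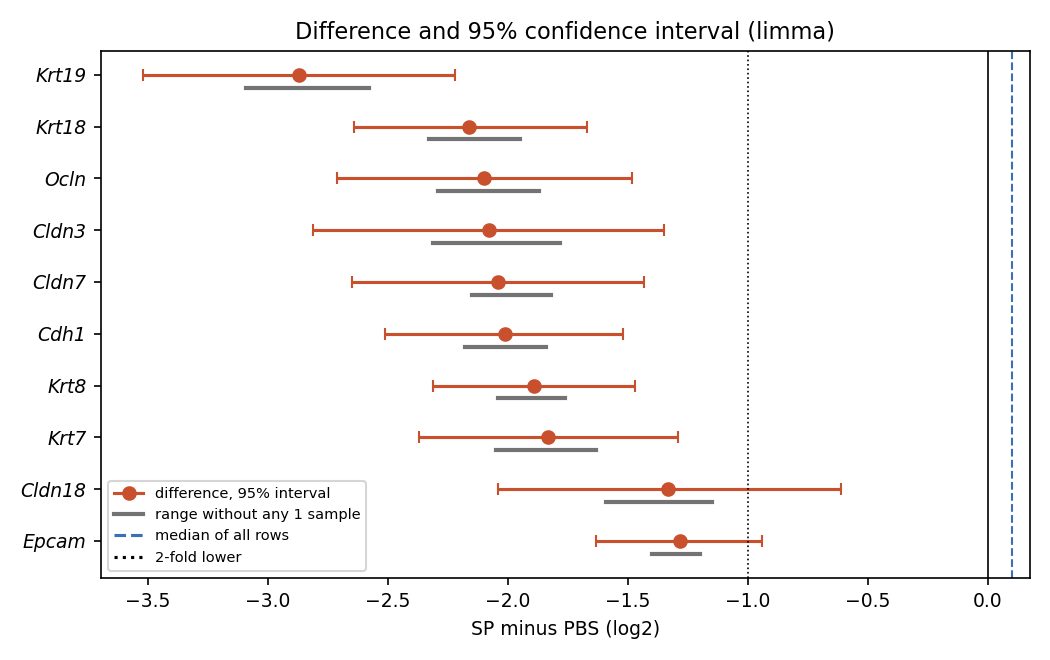
Difference SP minus PBS (log2, horizontal axis) of each gene with its 95% confidence interval (orange) and, in grey, the range of the difference when any 1 sample was left out. Krt19 (-2.87) lies farthest from 0, Epcam (-1.28) and Cldn18 (-1.33) nearest, and all lie on the other side of 0 from the median of all rows (0.10, dashed).

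The size of the fall was compared between genes as the difference of 2 genes within each array, which removes what an array shares. Of the 45 pairs of genes, 21 reached the smallest p that an exact two-sided permutation test of 4 against 4 samples allows (0.0286 over 70 arrangements), and no pair passed an adjusted p of 0.05 (smallest 0.0612). The changes of Epcam and Krt19 differed most, by 1.59 log2 units. Krt19 fell 0.71 further than Krt18, 0.98 further than Krt8 and 1.04 further than Krt7, each at the smallest exact p of 0.0286. The partners Krt8 and Krt18 differed by 0.26 (exact p = 0.0286, adjusted 0.0612). Among the tight junction proteins, the changes of Cldn7 and Ocln differed by 0.06 (exact p = 0.857) and those of Cldn3 and Ocln by 0.02 (exact p = 0.914), whereas Cldn3 and Cldn18 differed by 0.76 (exact p = 0.0286). After subtracting each gene's own mean over the 8 arrays, the closest pair was Cdh1 and Krt8 (root mean square distance 0.09 log2 units) and the farthest Epcam and Krt19 (0.85). These distances span both groups, so they include the unequal falls given above and are no separate evidence of them.

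Within each group the 10 genes also ordered the samples alike. PBS replicate 2 was the highest PBS sample for 9 genes and PBS replicate 3 the lowest for 9. In SP, replicate 4 was the highest and replicate 3 the lowest sample for all 10. Over all rows, PBS replicate 2 was the highest PBS sample in 31.9% and PBS replicate 3 the lowest in 24.4%. SP replicate 4 was the highest SP sample in 23.7% of all rows and SP replicate 3 the lowest in 33.9%. On average the genes lay 0.29 above their group mean in PBS replicate 2, 0.21 below it in PBS replicate 3, 0.60 below it in SP replicate 3 and 0.55 above it in SP replicate 4. Samples spread more in SP than in PBS for 9 of the 10 genes, as they did for 65.7% of all rows. The genes share arrays, so their common order is 1 observation per sample and not 10.

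**Figure D3:**
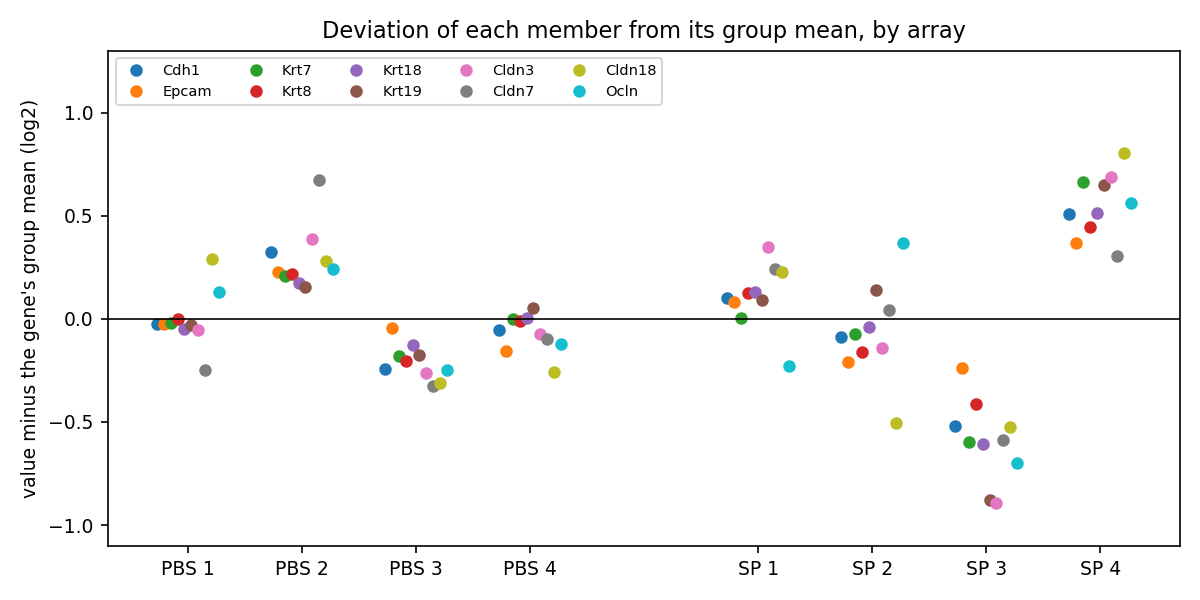
Value of each gene minus its own group mean (log2, vertical axis) in each of the 8 arrays, with 1 color per gene. All points of SP replicate 3 lie below 0 (-0.89 to -0.24) and all points of SP replicate 4 above it (0.31 to 0.80), while the points of PBS replicate 1 lie on both sides (-0.25 to 0.29).

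The other genes of the junctions moved mostly in the same direction. Of 24 further tight junction genes, 21 fell, 18 of them at least 2-fold, 1 rose and 2 were not called, with a median difference of -1.36. The scaffold proteins that anchor claudins to the cytoskeleton were among those that fell. The log2 differences were -1.81 for Tjp1 (ZO-1) and -1.81 for Cgn (cingulin), with adjusted p-values of 0.00148 and 0.000384 by limma. Of the membrane proteins, Cldn4 (-2.07), Lsr of the corners where 3 cells meet (-1.79), Marveld2 or tricellulin (-1.07) and F11r or JAM-A (-0.92) all fell. Crb3, of the apical polarity complex, fell by 1.02. The largest fall was that of Cldn10, which had 2 rows with differences of -2.99 and -2.70.

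Cldn1 went the other way. This claudin of skin and airway barriers was measured at 8.64, 7.96, 8.97 and 8.90 in PBS and at 12.18, 12.08, 12.45 and 11.97 in SP. No sample of a group came near the other group, and the SP samples lay between 11.97 and 12.45. Cldn1 rose from 8.62 ± 0.46 to 12.17 ± 0.21 (SD, n = 4 each), a difference of 3.55 (SE 0.22, 11.7-fold higher, adjusted p = 1.42e-05 by limma), whereas 6.37% of all rows were at least 2-fold higher. Its order within the groups also differed from that of the 10 genes, since PBS replicate 2 was its lowest and SP replicate 3 its highest sample. Its printed promoter window held GGGCGG at 42 and 14 bases before the start and no E-box letters.

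The adherens junction list held 12 genes besides Cdh1, of which 10 fell, 5 of them at least 2-fold, and the median difference was -0.82. The catenins, which link cadherins to actin, had unequal changes. The log2 differences were -1.91 for Jup (plakoglobin), shared with desmosomes, -1.47 for Ctnnd1 (the catenin that binds near the membrane) and -0.71 for Ctnna1 (alpha-catenin), with adjusted p-values of 0.000388, 0.00178 and 0.00516. Ctnnb1 (beta-catenin), which also acts in Wnt signaling in many cell types, had PBS values of 12.03, 12.31, 11.92 and 11.93 and SP values of 11.93, 11.92, 11.56 and 11.86. These values overlapped, the difference of -0.23 did not pass the test (adjusted p = 0.148), and it moved with the scaling, to 0.05 (adjusted p = 0.689) for arrays centred on their median and to -0.47, called lower (adjusted p = 0.0344), for a repeated quantile normalization. Nectin4, a nectin adhesion protein, rose by 1.07 (adjusted p = 0.00155). Of 9 desmosome genes, 6 fell and none rose, with a median of -1.88. Those named were Dsp or desmoplakin (-2.83), which binds keratin filaments, Ppl or periplakin (-2.52), Pkp2 or plakophilin 2 (-2.35), Dsg2 or desmoglein 2 (-2.34) and Perp (-1.88), with adjusted p-values from 1.84e-05 to 0.00133.

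The other keratins were mixed. Of 11 further keratins, 5 fell, 4 of them at least 2-fold, none rose and the median difference was -0.11. Krt23 (-2.69), Krt79 (-2.01) and Krt15 (-1.17) fell, with adjusted p-values of 4.49e-05, 0.000409 and 0.00287. In SP these 3 keratins lay between 4.51 and 5.53, near the 4.33 to 4.90 of the Y-linked rows that serve here as a measure of background, so the size of their falls may be too small. Krt4 and Krt14, of stratified epithelium, lay near background in all samples, at 4.07 to 4.23 and 4.63 to 5.06, and did not pass the test, although Krt4 was called higher with centred arrays (0.30, adjusted p = 0.0206 by limma). Krt5, the basal cell keratin, had an adjusted p of 0.0431 for a difference of -0.31, and its call was lost in 9 alternative settings, among them the centring of arrays (difference -0.03, adjusted p = 0.823).

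Regulators of the epithelial state fell with the junction genes. Of 19 such genes with a row, 14 fell, 13 of them at least 2-fold, and none rose, with a median of -1.55. Nkx2-1 had no matched row. The transcription factors Foxa1 (-2.61), Grhl2 (-2.03), Elf3 (-1.99), Foxa2 (-1.30) and Ehf (-1.22) fell, as did Esrp1, an epithelial splicing factor (-2.59, SE 0.19, adjusted p = 3.17e-05). Of membrane proteins in this list, Spint2, a protease inhibitor, fell (-1.80).

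Genes that rise when epithelial cells turn mesenchymal did not move as a group. Of 9 genes, 2 fell, 2 rose and 5 were not called, with a median of 0.08. Vim (vimentin), which leukocytes also express, was 12.58 to 12.77 in PBS and 12.56 to 12.77 in SP, so the groups overlapped almost fully (difference -0.06, adjusted p = 0.57, and 0.23 with arrays centred on their median). Snai2 fell by 0.64 (adjusted p = 0.00358). Zeb2, a repressor that binds the E-box letters and is also active in leukocytes, rose from 9.65 ± 0.25 to 11.86 ± 0.14, with PBS values of 9.83, 9.28, 9.68 and 9.80 and SP values of 11.95, 11.79, 11.99 and 11.69. The difference was 2.21 (SE 0.14, 4.62-fold higher, adjusted p = 1.38e-05 by limma). No link between Zeb2 and the fall of the 10 genes was tested.

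**Figure D4:**
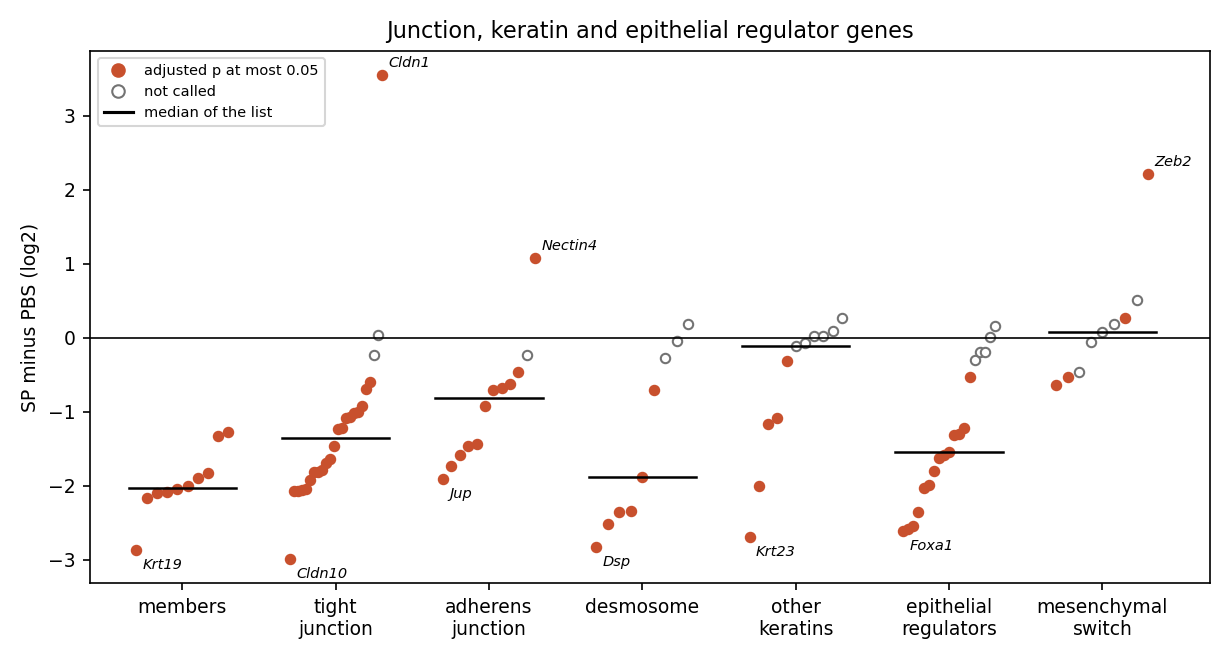
Difference SP minus PBS (log2, vertical axis) of every gene with a row in 7 gene lists, filled where the adjusted p by limma was at most 0.05, with a black line at each list's median. Cldn1 (3.55), Zeb2 (2.21) and Nectin4 (1.07) stand above 0, while the medians of the tight junction (-1.36), desmosome (-1.88) and regulator (-1.55) lists stand below it.

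Markers of other lung cells were given for the same arrays because the beads could carry such cells. Neutrophil markers were high in all samples. The 9 markers lay between 11.80 and 13.65 in every sample on a table that runs from 3.64 to 14.45, and their mean per array was 12.85 to 13.16 in PBS and 12.55 to 13.14 in SP, so that the groups overlapped. Of these 9, 3 fell, none of them 2-fold, and 6 did not pass the test. S100a8, a calcium-binding protein abundant in neutrophils, had a difference of -0.18 (adjusted p = 0.211) and S100a9 one of -0.30 (adjusted p = 0.176). Both were called lower with a repeated quantile normalization (-0.31 and -0.50), with array weights (-0.27 and -0.43) and without SP replicate 3 (-0.28 and -0.46), with adjusted p-values from 0.00966 to 0.0403 by limma, while S100a8 was 0.10 with centred arrays (adjusted p = 0.541).

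Markers of lung epithelium fell in all 4 lists that were compared. All 11 ciliated cell markers with a row fell at least 2-fold, and the mean of the list was 9.09 to 10.01 in PBS and 6.22 to 7.02 in SP. All 7 club cell markers fell (12.46 to 13.03 in PBS, 9.98 to 11.16 in SP), as did 7 of 9 markers of alveolar type 1 cells (9.14 to 10.23 and 7.74 to 8.62) and 8 of 10 of alveolar type 2 cells (11.77 to 12.29 and 9.96 to 11.30). The type 2 count includes Sftpa1 (surfactant protein A, difference -0.94, adjusted p = 0.0375), whose call was lost in 8 alternative settings, 6 of them without 1 sample, with adjusted p-values from 0.0504 to 0.0854. Single markers fell by unequal amounts. Tppp3 of ciliated cells (-2.25), Aqp5 or aquaporin 5 (-2.45) and Sftpb or surfactant protein B (-1.48) fell, while Scgb1a1, the main secretory protein of club cells, fell by 0.63 on the log2 scale from values of 13.55 to 13.75. The mean of none of these lists was at background in any group. Single markers could be, as Igfbp2 of the type 1 list was 4.39 to 4.68 in SP. The part of epithelial cells or their free RNA in the fall of the 10 genes was not tested.

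Other lung cells were compared in the same way. Endothelial markers fell for 10 of 11 genes (list mean 10.31 to 11.31 in PBS, 8.67 to 9.86 in SP), with differences of -0.99 for Cdh5 (VE-cadherin) and -0.35 for Pecam1, which was not called (adjusted p = 0.275). Mesothelial markers, from the keratin-bearing lining of the lung surface, all fell (6 of 6 with a row, 9.43 to 10.10 and 5.56 to 7.18), with differences of -2.60 for Msln (mesothelin) and -4.31 for Upk3b, a uroplakin. Of 6 fibroblast markers, 1 fell and 5 were not called, and the list's groups overlapped (7.54 to 8.40 and 6.91 to 8.68). Of these, Col1a1 (collagen I) had a difference of 0.36 (adjusted p = 0.235) and was called higher with centred arrays (0.65, adjusted p = 0.0214) and with a repeated quantile normalization (0.66, adjusted p = 0.0384). Alveolar macrophage markers fell for 5 of 8 genes and rose for 1 (8.81 to 9.39 and 7.68 to 8.40). Marco (-0.16, adjusted p = 0.327) and Siglecf (-0.86, adjusted p = 0.0841 by limma) were not called. Marco was called lower without SP replicate 4 (-0.29, adjusted p = 0.0396). Siglecf was called lower with array weights (-0.76, adjusted p = 0.0181) and without PBS replicate 2 (-1.15, adjusted p = 0.0246).

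The order of the arrays could be followed across most of these lists in SP and across some of them in PBS. SP replicate 3, the lowest SP sample for all 10 genes, was also the lowest in the club (9.98), type 1 (7.74), type 2 (9.96) and ciliated (6.22) lists. It was the lowest as well in the mesothelial (5.56), endothelial (8.67), fibroblast (6.91) and alveolar macrophage (7.68) lists. Its neutrophil mean was the highest of the SP samples (13.14). In PBS, replicate 2 had the highest mean of the 10 genes (11.08) and the lowest neutrophil mean (12.85), and replicate 3 had the lowest mean of the 10 genes (10.58) and the highest neutrophil mean (13.16). The type 1, type 2, club and ciliated lists were also highest in PBS replicate 2 and lowest in PBS replicate 3. In contrast, the mesothelial list was lowest in PBS replicate 2 (9.43), and the fibroblast (8.40) and alveolar macrophage (9.39) lists were highest in PBS replicate 1. SP replicate 4 had the highest mean of the 10 genes in SP (9.38) but not the lowest neutrophil mean, which was that of SP replicate 2 (12.55). SP replicate 4 was also the highest SP sample in the type 1 (8.62), type 2 (11.30), club (11.16) and mesothelial (7.18) lists. The endothelial (9.86), fibroblast (8.68) and alveolar macrophage (8.40) lists were likewise highest in SP replicate 4. The ciliated list was highest in SP replicate 2 (7.02) and not in SP replicate 4 (6.81). These are values of 4 samples a group, and their relation was not tested.

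**Figure D5:**
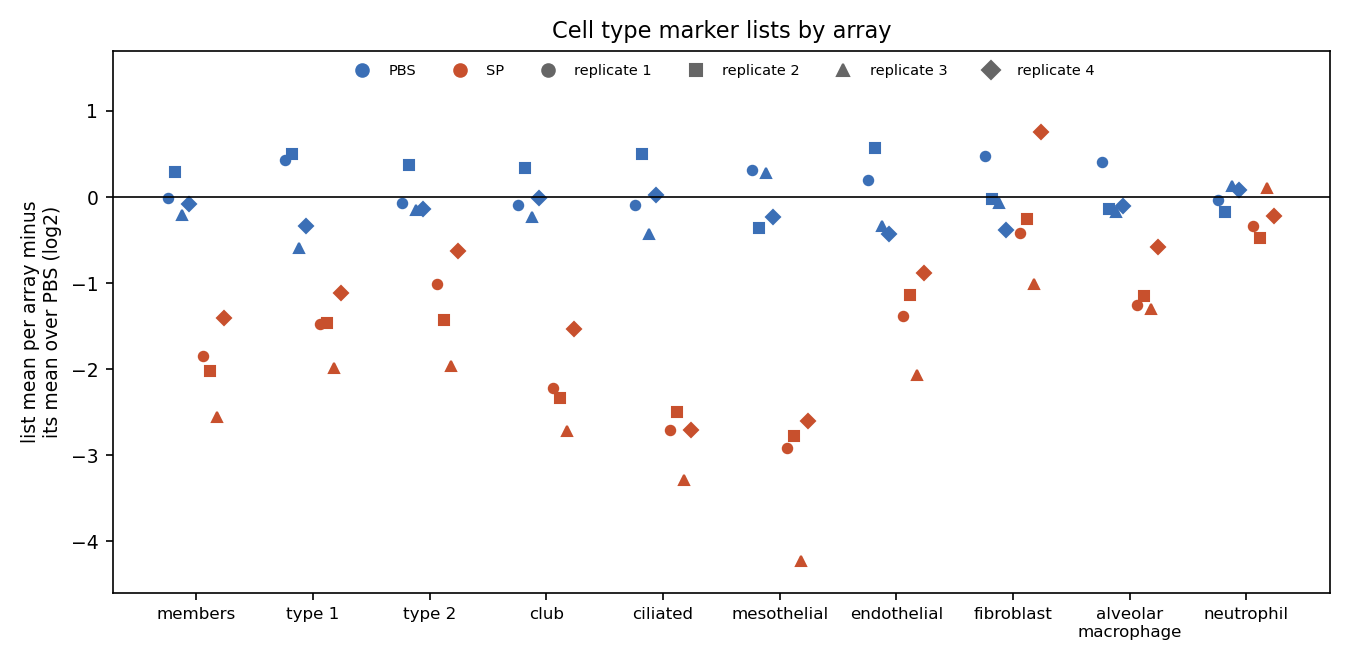
Mean of each cell type marker list per array minus the list's mean over the PBS arrays (log2, vertical axis), for PBS (blue) and SP (orange), with marker shape giving the replicate. The 10 genes, the 4 epithelial lists, the mesothelial, endothelial and alveolar macrophage lists are lower in every SP sample than in every PBS sample, while the fibroblast and neutrophil lists overlap.

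Likeness to the 10 genes was measured over the 8 arrays as the root mean square distance of centred values to the mean of the 10 genes, for 19826 other genes. Among the 5 nearest were Akip1 (0.09 log2 units), Atp9a, a phospholipid flippase (0.10), Epn3, an endocytic adaptor (0.10) and Gne, the key enzyme of sialic acid synthesis (0.10). Their differences between SP and PBS were -1.91, -2.13, -2.05 and -2.02. Atp9a was also the gene nearest to Krt18 (0.06), and the tight junction protein Patj was the gene nearest to Cdh1 (0.09).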

How the data were processed

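Neutrophil RNA of 8 mouse samples was hybridised to Affymetrix Mouse Gene 1.1 ST arrays. The deposited values are log2 expression levels that the authors made by robust multi-array averaging (RMA: background correction, GC and sequence correction, quantile normalization, median polish) with their own assignment of probes to genes, and the labels name Affymetrix Expression Console, RMA and Partek. No genome build is attached to the values. Quantile normalization makes levels relative within an array, so a change in a cell's total RNA cannot be read from them. Array medians were 6.06 to 6.20 in PBS and 5.78 to 5.91 in SP, no arrays were identical, and no sequencing depth applies. The number of arrays limits the precision.

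Groups and replicate numbers came from the sample titles. No label ties replicates to animals, batches or days, so p-values measure the spread between these samples. RefSeq identifiers were matched to symbols (assembly GRCm38.p6), which named 19915 of 24625 rows (80.9%). Of several rows for a gene, that with the highest mean was used, and the older symbols of Nectin1 to Nectin4 and Afdn were updated. Rows were tested with limma 3.58.1 (R 4.3.3), two-sided, Benjamini-Hochberg adjusted over all rows, with no covariate, at an adjusted p of 0.05 and a difference of 2-fold. The fit was tested on simulated data. Python 3.11.15, pandas 2.3.3 and matplotlib 3.10.9 were used for the rest.

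The 10 genes and all lists were chosen with earlier results of these data known. Named genes were the 10 genes, a fixed choice from the junction, keratin and regulator lists, the called gene with the largest fall or rise of each of these lists, and the first 2 markers of each cell type list that had a row. Patj and the other nearest genes were named by their distance. Some genes of these rules are counted but not reported here. Foxj1, Rtkn2, Scgb3a2, Muc16, Wt1, Fbln1, Fabp4, Nkx2-1 and Eif2s3y had no matched row. Alternatives were one-way ANOVA as in the study's methods, an intensity trend with a robust prior, array weights, a block for the replicate number, centring of each array on its median, a repeated quantile normalization, dim rows left out, 1 row per symbol, and leaving out each sample in turn. The test of pairs of genes was an addition made with the values known.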

Additional observations from a re-analysis of the deposited data

Results flagged for a closer look

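Single samples that stood apart from the other 3 of their group by Dixon's ratio were found in 6 of 132 groups of a named gene, and chance alone marks about 1 in 20. None was a group of the 10 genes. Marveld2 was 6.39 in SP replicate 2, above the 6.15 to 6.19 of the other SP samples. Ppl was 9.26 in PBS replicate 2, against 8.88 to 8.91 in the others. Krt5 was 4.55 in SP replicate 1, below 4.65 to 4.66 in the others, which are values at background. Aqp5 was 9.71 in PBS replicate 3 (10.03 to 10.06 in the others), and Tppp3 was 9.17 in SP replicate 3 (9.94 to 9.96 in the others). Siglecf, a marker of alveolar macrophages and eosinophils, was 7.29 in PBS replicate 2 against 8.37 to 8.52 in the others.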

How the results depend on the processing

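All 10 genes remained at least 2-fold lower in SP with an adjusted p of at most 0.05 in each of the 8 alternative analyses and in each of the 8 analyses without 1 sample. Their differences ranged from -3.09 to -2.58 for Krt19, from -1.59 to -1.04 for Cldn18 and from -1.40 to -1.0 for Epcam, and the highest adjusted p was 0.0309 (Cldn18). Centring the arrays on their medians raised every difference by 0.28, moved the median of all rows from 0.10 to 0.38 and the number of rows called from 10860 to 18255. It turned the uncalled differences of Ctnnb1 (0.05), Krt14 (0.21), Vim (0.23), Marco (0.12) and S100a8 (0.10) above 0, and none of these passed the test. Another quantile normalization turned Krt4 to -0.10 and the Y-linked Ddx3y to -0.02, and it added calls for Ctnnb1 (-0.47), S100a8 (-0.31), S100a9 (-0.50) and Col1a1 (0.66). Centring added calls for Krt4 (0.30), Col1a1 (0.65) and Ddx3y (0.40). Krt4 lay between -0.01 and 0.05 without any 1 sample. With dim rows left out, 2 other keratins were called lower rather than 5, because the dimmer of these keratins were themselves left out of the test. Replicate numbers did not pair the samples (correlations of same-numbered deviations from -0.274 to 0.35), and with the replicate number as a block (replicate block) 10 of the 10 genes remained called and 9842 rows were called over the table. Krt5 lost its call under the replicate block (adjusted p = 0.0508). With 4 arrays a group, values near the Y-linked level give no exact fold, and samples were not tied to batches by their labels.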

Other observations

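The genes whose values over the 8 arrays lay nearest to each of the 10 genes differed from gene to gene. They were Zfp970 for Epcam (root mean square distance 0.10 log2 units), Cobll1 for Krt7 (0.10), Mboat1 for Krt8 (0.08), Ang for Krt19 (0.11), Ptprf for Cldn3 (0.08), Slc44a4 for Cldn7 (0.08), Ckmt1 for Ocln (0.09) and Rasgef1a for Cldn18 (0.16). Cldn18 thus had no gene as near to it as the nearest gene of the other 9. The second nearest gene of Krt19 was Aldh1a1 (0.14), a retinaldehyde dehydrogenase, with a difference of -2.77. Abca3, the lipid transporter of lamellar bodies in alveolar type 2 cells, was the fifth nearest to Cldn3 (0.12), and it fell by 2.20 on the log2 scale (adjusted p = 0.00137 by limma).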
